A study of Danio rerio with 8 samples.

Results

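Vitellogenins are the precursors of egg yolk. In egg-laying vertebrates they are known as large lipid-carrying glycoproteins that the liver of the female makes under oestradiol, acting through the oestrogen receptor Esr1, and releases into the blood. The growing oocyte takes them up by receptor-mediated endocytosis and cuts them into yolk proteins with cathepsins. In zebrafish, vtg1, vtg4, vtg5, vtg6 and vtg7 are known as type I genes, vtg2 as a type II gene and vtg3 as the type III gene, whose protein lacks the serine-rich phosvitin part. They are not known as genes of the spinal cord. The members described here are the 7 entries with the symbols vtg1 to vtg7, of 25309 entries in the deposited table, and all 7 were found.

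The study sequenced RNA from the adult zebrafish spinal cord, a 2 mm section, in mstnb mutants (-/-) and wild-type siblings, with no injury or 1 week after the cord was cut through completely (1 week post injury, 1 wpi). mstnb codes for a zebrafish myostatin, a secreted factor of the TGF-beta family known to limit muscle growth. The 4 groups are wild type uninjured, mutant uninjured, wild type 1 wpi and mutant 1 wpi, with 2 libraries each. The section of injured fish held the lesion and the adjoining cord. A position 4 mm behind the brainstem is recorded for injured and uninjured fish alike. Fish were 3 to 9 months old and of both sexes, in equal distribution per the labels. The labels state neither the mutant allele, nor the sex of the fish behind a library, nor how many fish a library holds, so what a p-value weighs here is the spread between libraries, some or all of which may be technical. One library of the injured wild type carries the number 3 in its column name and is called wild type 1 wpi 3.

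Depth was 20082743 to 33410514 reads a library, so that 1 read was worth 0.0299 to 0.0498 CPM (reads scaled to a common library total). The targeted gene mstnb stood at 42.2 to 74.8 CPM in the 4 wild-type and at 10.2 to 26.4 CPM in the 4 mutant libraries. Cord markers were present throughout. None of the 22 genes of a list of neuron, radial glia and oligodendrocyte markers was at 0 reads in any library. Their summed level was 101296 to 144408 CPM in the uninjured and 60332 to 66047 CPM in the injured libraries. Most of that sum was the gene mbpa, at 78682 to 123780 CPM uninjured and 33531 to 38332 CPM injured. The median log2 change of the list with injury was 0.40 against 0.29 for all genes in wild type. In mutants it was 0.48 against 0.37. One library stands apart in what follows. Wild type uninjured 1 held 5601 CPM of vitellogenin reads against 103 CPM in wild type uninjured 2, and the comparisons of the vitellogenins that use it, and the injury calls of the lists in wild type, are given with and without it.

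In the RefSeq annotation of assembly GRCz12tu, 6 of the 7 members were matched by symbol. vtg5, vtg4, vtg6, vtg7 and vtg2 follow each other in this order on one chromosome, with vtg8 behind vtg2, and vtg3 lies on another chromosome. vtg1 had 0 entries under that symbol in the annotation table, and vtg8 was not analysed here. No label or header names the genome build or the counting rule, so reads that match several of these related genes may have been split or shared between members, and the level of a single member is uncertain. Transcript lengths were not at hand, and levels are therefore compared between libraries for one gene, not between genes.

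Vitellogenin reads were concentrated in the uninjured cord, above all in one of its libraries. Summed over the 7 genes they came to 5601 and 103 CPM in the 2 uninjured wild-type libraries and to 28.7 and 5.71 CPM in the uninjured mutants. After injury they came to 0.647 and 1.92 CPM in wild type and to 0.959 and 1.06 CPM in mutants. In wild type uninjured 1 this was 0.560% of all reads (95% Wilson interval 0.557% to 0.563%, counting error only). The 4 uninjured libraries thus lie in 1 descending series, and each of the injured libraries lies below all of them. Group means were 2852 ± 3888 CPM in uninjured wild type, 17.2 ± 16.2 CPM in uninjured mutants, 1.29 ± 0.903 CPM in injured wild type and 1.01 ± 0.0695 CPM in injured mutants (SD, n = 2 each). The first of these means rests on wild type uninjured 1, the other library standing at 103 CPM. In the first 2 groups the spread between the libraries is about as large as the mean. In whole tissue, fewer cells of a type and less RNA per cell cannot be told apart.

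**Figure D1:**
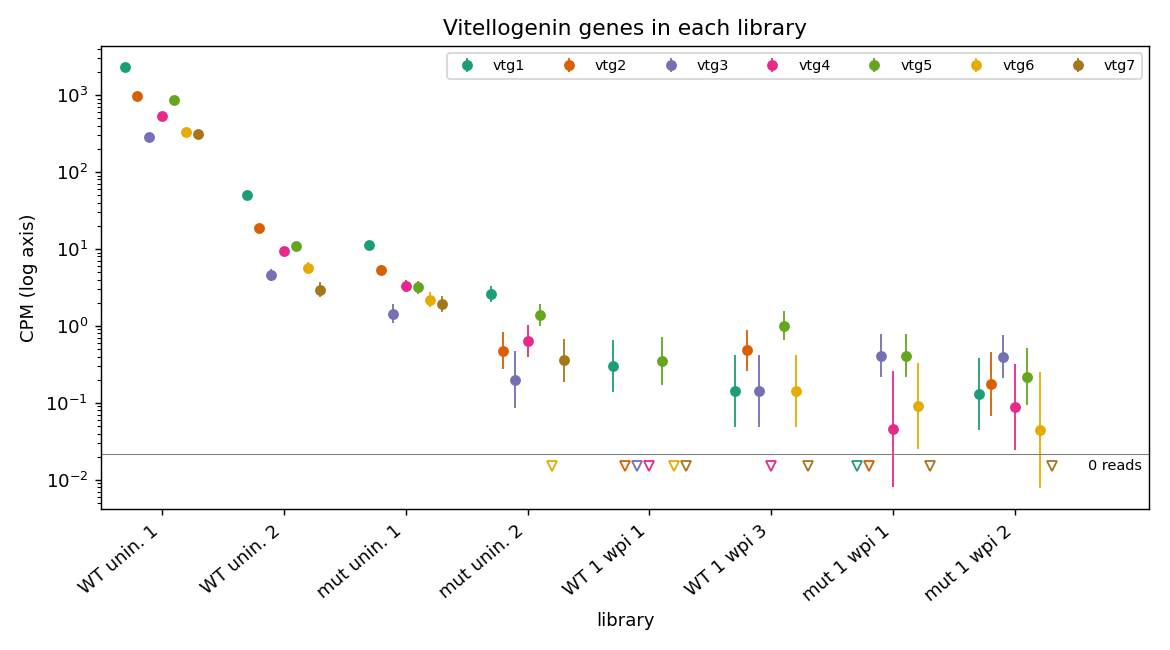
CPM of each vitellogenin gene (log axis) in each of the 8 libraries (WT, wild type; mut, mstnb mutant; unin., uninjured), with 95% Wilson intervals for counting error; open triangles mark 0 reads and have no height on the axis. All 7 genes step down from wild type uninjured 1 through wild type uninjured 2 and mutant uninjured 1 to mutant uninjured 2, and in the injured libraries no gene exceeds 1.01 CPM.

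The type I gene vtg1 stood at 2295 and 50.6 CPM in uninjured wild type, 11.3 and 2.63 CPM in uninjured mutants, 0.299 and 0.144 CPM in injured wild type, and 0 and 0.132 CPM in injured mutants. Its 4 injured libraries all lie below its 4 uninjured ones, and those hold 6, 3, 0 and 3 reads. vtg5 had 864 and 10.9 CPM in uninjured wild type, 3.17 and 1.40 CPM in uninjured mutants, 0.349 and 1.01 CPM in injured wild type, and 0.411 and 0.220 CPM in injured mutants. It was the 1 member with reads in each of the 8 libraries, and its injured libraries too lie below all uninjured ones.

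vtg4 had 541 and 9.46 CPM in uninjured wild type, 3.29 and 0.639 CPM in uninjured mutants, 0 reads in both injured wild-type libraries and 0.0457 and 0.0881 CPM in injured mutants. vtg7 had 315 and 2.96 CPM in uninjured wild type and 1.95 and 0.359 CPM in uninjured mutants, and was at 0 reads in all 4 injured libraries. vtg6 had 332 and 5.72 CPM in uninjured wild type, 2.18 CPM and 0 reads in uninjured mutants, 0 reads and 0.144 CPM in injured wild type, and 0.0913 and 0.0441 CPM in injured mutants. For vtg4 and vtg7 the uninjured and injured libraries do not overlap, while vtg6 was at 0 in mutant uninjured 2 and so overlaps the injured libraries there.

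The type II gene vtg2 had 971 and 18.5 CPM in uninjured wild type, 5.30 and 0.479 CPM in uninjured mutants, 0 reads and 0.481 CPM in injured wild type, and 0 reads and 0.176 CPM in injured mutants. The type III gene vtg3 had 283 and 4.61 CPM in uninjured wild type, 1.44 and 0.200 CPM in uninjured mutants, 0 reads and 0.144 CPM in injured wild type, and 0.411 and 0.397 CPM in injured mutants. For both, mutant uninjured 2 lies below the highest injured library, so that uninjured and injured libraries overlap. All 7 members had the same order of the 4 uninjured libraries, an order held by 606 of the 19114 genes whose group mean reached 1 CPM somewhere (3.17%). For 4 of the 7 members, vtg1, vtg4, vtg5 and vtg7, all injured libraries lay below all uninjured ones, against 2.44% of those genes.

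The distance between the 2 uninjured wild-type libraries was larger for the vitellogenins than for nearly all other genes. The ratio of library 1 to library 2 was 45.3 for vtg1, 52.6 for vtg2, 57.2 for vtg4, 58.0 for vtg6, 61.5 for vtg3, 78.9 for vtg5 and 106 for vtg7. With 1 CPM added to both values, the members took ranks 1 to 6 and 8 of 19114 genes by this ratio. Of those genes, 63 reached a ratio of 10, and the median ratio was 0.828. The uninjured mutant libraries 1 and 2 differed in the same direction by 2.27-fold for vtg5 to 11.1-fold for vtg2, with vtg6 at 0 reads in library 2.

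The make-up of the family was compared in the 3 libraries with the most of its reads. vtg1 took 41.0% of the reads of the 7 genes in wild type uninjured 1 (exact 95% interval 40.7% to 41.2%), 49.3% in wild type uninjured 2 (47.3% to 51.2%) and 39.6% in mutant uninjured 1 (36.4% to 42.7%). vtg2 took 17.3%, 18.0% and 18.5% in the same 3 libraries, and vtg3 5.06%, 4.48% and 5.01%. The intervals of vtg2, vtg3, vtg4 and vtg6 overlap between these libraries, while vtg1 took more in wild type uninjured 2 than in the other libraries. vtg7 took less there, with 2.88% of the reads in wild type uninjured 2 (2.26% to 3.61%) against 5.62% in wild type uninjured 1 (5.49% to 5.75%) and 6.78% in mutant uninjured 1 (5.28% to 8.57%). vtg5 took 15.4% in wild type uninjured 1 (15.2% to 15.6%) but 10.6% in wild type uninjured 2 (9.46% to 11.9%) and 11.1% in mutant uninjured 1 (9.15% to 13.2%). Mutant uninjured 2, with 143 reads of the family, had 24.5% of vtg5 (17.7% to 32.4%), 8.39% of vtg2 (4.41% to 14.2%) and 0% of vtg6 (upper bound 2.55%), which lie outside the intervals of the other 3 libraries.

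**Figure D2:**
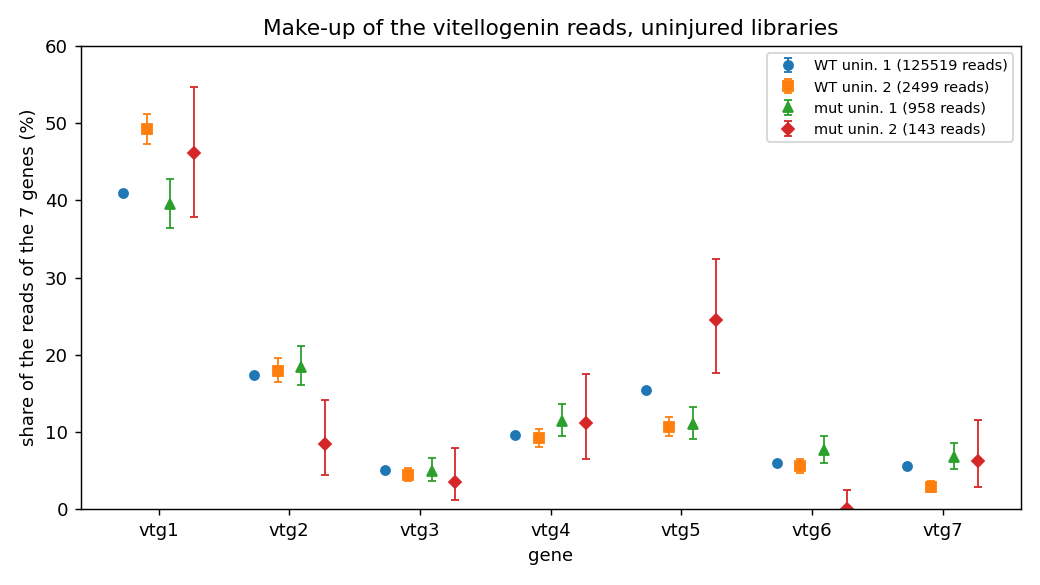
Share of each gene among the reads of the 7 vitellogenin genes (percent) in the 4 uninjured libraries, with exact 95% binomial intervals for counting error; the key gives the family's reads in each library. vtg1 takes 39.6% to 49.3% in every library, and vtg5 is high and vtg2 and vtg6 are low in mutant uninjured 2, which rests on 143 reads.

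In the injured libraries the family was down to 13, 40, 21 and 24 reads, and its make-up was not that of the uninjured cord. vtg1 held 3 of the 40 reads of wild type 1 wpi 3 (7.50%, exact 95% interval 1.57% to 20.4%), 0 of the 21 of mutant 1 wpi 1 (upper bound 16.1%) and 3 of the 24 of mutant 1 wpi 2 (12.5%, 2.66% to 32.4%), each below its 39.6% or more in the uninjured libraries. In wild type 1 wpi 1 it held 6 of 13 reads (46.2%, 19.2% to 74.9%), which is not distinguishable from the uninjured share. vtg5 held 21 of 40 reads in wild type 1 wpi 3 (52.5%, 36.1% to 68.5%), and vtg3 held 9 of 21 reads in mutant 1 wpi 1 (42.9%, 21.8% to 66.0%) and 9 of 24 in mutant 1 wpi 2 (37.5%, 18.8% to 59.4%). Of the 28 combinations of a member and an injured library, 11 were at 0 reads, and a count of 0 allows 0.132 CPM in mutant 1 wpi 2, the deepest of them, to 0.149 CPM in wild type 1 wpi 1, the shallowest (3 reads).

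The first comparison asks how the wild-type cord differs 1 week after transection. vtg1 to vtg6 were lower in the injured cord and vtg7 did not pass the test. The test was limma on log2(CPM + 1) over all 8 libraries, with Benjamini-Hochberg adjustment over 19114 genes and a call at an adjusted p under 0.05. In it 182 genes were called lower, which is 0.952% of those tested, and 6 of the 7 vitellogenins are among them. All 7 members passed the filter of 1 CPM through uninjured wild type, 6 (not vtg3) also through uninjured mutants and 0 through an injured group. All 7 had both injured below both uninjured libraries, against 13.0% of all genes.

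Changes are given relative to the median of all genes, which was 0.29 on the log2 scale and 0.03 after TMM scaling of the libraries. Standard errors, p-values and calls, here and in the later comparisons of the members, belong to the change before that shift. vtg1 changed by -8.43 ± 1.23 (log2 ± SE, adjusted p = 0.00499 in limma), vtg2 by -7.11 ± 1.30 (adjusted p = 0.0147) and vtg4 by -6.52 ± 1.26 (adjusted p = 0.0190). vtg5 (-6.24 ± 1.34), vtg6 (-5.75 ± 1.26) and vtg3 (-5.51 ± 1.24) followed with adjusted p of 0.0307, 0.0342 and 0.0380 in limma. The value of vtg7 was -5.43 ± 1.37 (adjusted p = 0.0606 in limma). These fitted changes depend on the added 1 CPM, since the injured libraries hold few reads or none.

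Ratios of the summed reads per group, with exact intervals for counting error alone, give the size without that addition. Uninjured wild type held 5118 times the vtg1 reads per library total of injured wild type (2696 to 11193, from 52656 and 9 reads) and 613 times those of vtg5 (424 to 923). For vtg4 and vtg7, at 0 reads in both injured libraries, the level was at least 3603-fold and at least 2078-fold lower, with a floor of 3 reads over the group. Without wild type uninjured 1 the same ratios were 230 for vtg1 (121 to 504) and 16.0 for vtg5 (10.8 to 24.5), and the bounds were 129 for vtg4 and 40.4 for vtg7. The direction was the same for all 7 members, and every ratio was smaller.

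Leaving out wild type uninjured 1 altogether, limma again called vtg1 to vtg6 lower, where 0.700% of all genes were. The changes were then -5.53 ± 0.62 for vtg1 (adjusted p = 0.000625), -3.51 ± 0.56 for vtg4 (adjusted p = 0.00679) and -2.98 ± 0.51 for vtg5 (adjusted p = 0.00991 in limma), and vtg7 stood at -2.11 ± 0.53 (adjusted p = 0.0652). In that fit the remaining uninjured wild-type library is assumed to vary like the other groups. No member was called with either injured wild-type library left out. These fits hold the other library of that group alone, and far fewer genes of any kind were called in them than in the main fit. By other methods, genes called lower made up 1.26% with TMM-scaled CPM, 1.16% in edgeR, 4.84% in DESeq2, 0.195% in a fit of only these 2 groups and 1.93% with the replicate number as a block, and these called 3, 6, 7, 0 and 7 of the members. In that block wild type 1 wpi 3 has a number of its own and drops out, so injured wild type rests on wild type 1 wpi 1 alone. In the main type of fit, the change of vtg1 was -8.58 ± 1.55 with injured wild-type library 1 left out. It was -8.29 ± 1.56 with injured wild-type library 3 left out, so that the size was kept with a larger standard error. The call was kept with a smaller size when wild type uninjured 1 was left out.

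The authors' deposited table for this comparison lists all 7 members with an adjusted p under 0.05, all of them lower, as are 17.6% of its entries, with log2 changes from -7.46 for vtg5 to -13.24 for vtg4. For vtg5 the authors' deposited table gives a standard error of 0.328, while the 2 uninjured wild-type libraries lie 6.30 log2 units apart. DESeq2 on the recovered reads gave vtg5 a log2 change of -9.89 with a standard error of 1.75. The deposited values were thus not reproduced from these reads, and their standard error may not rest on them.

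**Figure D3:**
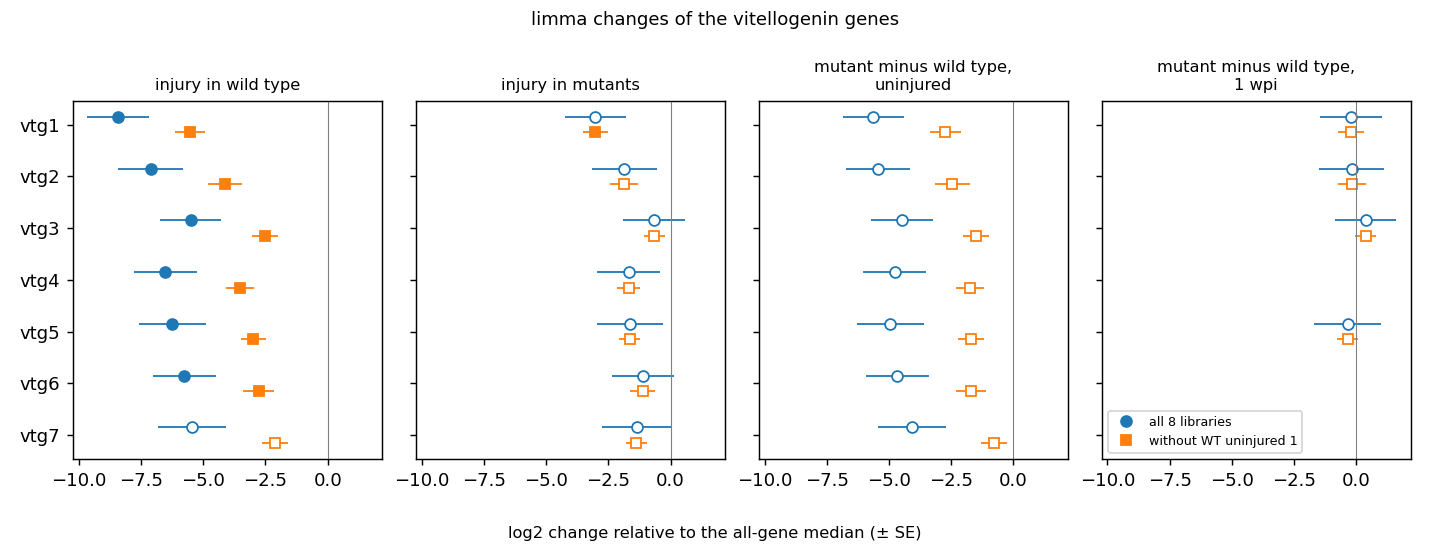
limma log2 change ± SE of each vitellogenin gene, relative to the median of all genes, in 4 comparisons, from all 8 libraries (circles) and without wild type uninjured 1 (squares). Filled symbols passed an adjusted p of 0.05, which tests the change before the shift by that median. Genes at or under 3 reads in both groups are left out. The injury change in wild type is smaller without that library but still called for vtg1 to vtg6, and no member is called in either comparison of the genotypes.

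The second comparison asks the same in mutants. No vitellogenin was called there in limma (adjusted p = 0.294 for vtg1 to 0.927 for vtg3), where 0.251% of all genes were called lower. At an unadjusted p under 0.05 in limma were 3328 of 19114 genes, in either direction, and 0 members. edgeR called 38 of 19114 genes lower, with 0 members among them, and DESeq2 called 311 lower (1.63%), with 1 member among them. vtg1 had the largest change relative to the median of all genes, -3.02 ± 1.23 on the log2 scale. Before that shift it was -2.65, which is the change the p-values test. The relative values of the others ran from -1.86 ± 1.30 for vtg2 to -0.65 ± 1.24 for vtg3. The main fit shares 1 spread per gene over the 4 groups. These standard errors, and those at 1 wpi, therefore include the distance between the 2 uninjured wild-type libraries. In a fit of only the 2 mutant groups the standard error of vtg1 was 0.531. Both injured libraries lay below both uninjured ones for 5 of the 7 members, all but vtg3 and vtg6, against 7.48% of all genes. vtg1 reads were 113 times as frequent in uninjured as in injured mutants (exact interval 38.5 to 551, from 445 and 3 reads). vtg3 differed 2.25-fold in the same direction (1.29 to 4.07, from 53 and 18 reads). Without mutant uninjured 1 the ratio of vtg3 was 0.494 (0.143 to 1.38), so its direction rests on that library, while that of vtg1 was 39.1 (12.8 to 195). vtg1 was called lower without wild type uninjured 1 (adjusted p = 0.00651) and without wild type uninjured 2 (adjusted p = 0.00732 in limma), where 0.847% and 0.816% of all genes were. It was also called lower in DESeq2 (adjusted p = 0.0162), in a fit of only the 2 mutant groups (adjusted p = 0.00641) and with the replicate block (adjusted p = 0.00329 in limma), where 1.63%, 0.779% and 0.727% of all genes were.

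Uninjured mutants and wild type were compared to find differences present before injury. Each vitellogenin was lower in both mutant than in both wild-type libraries, but none was called in limma (adjusted p = 0.421 for vtg1 and vtg2 to 0.876 for vtg7). Non-overlap in this direction was found for 15.7% of all genes. The changes were -5.63 ± 1.23 for vtg1, -5.44 ± 1.30 for vtg2 and -4.95 ± 1.34 for vtg5, and between -4.09 ± 1.37 (vtg7) and -4.77 ± 1.26 (vtg4) for the other members. In this comparison limma called 0 of 19114 genes (0%), with 852 at an unadjusted p under 0.05, all 7 vitellogenins among these. edgeR called 0 genes, and DESeq2 called 59 lower (0.309%), among them vtg1 and vtg5 (adjusted p = 0.0465 and 0.00924). All 7 members were called lower in a limma fit of only these 2 groups, and with the replicate block, where 0.496% and 0.790% of all genes were.

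The size of this difference came mostly from 1 library. Reads were 148 times as frequent in wild type as in mutants for vtg1 (exact interval 135 to 163), and 121 times for vtg7 (95.9 to 154). Without wild type uninjured 1 these ratios were 6.65 for vtg1 (5.97 to 7.43) and 2.34 for vtg7 (1.67 to 3.28), with the other 5 members between 4.39 and 5.72. The limma changes were then -2.73 ± 0.62 for vtg1 (adjusted p = 0.278) and -0.77 ± 0.53 for vtg7 (adjusted p = 0.874), with 0 genes called lower. Without wild type uninjured 2 instead, all 7 were called lower, as were 2.38% of all genes (adjusted p = 3.46e-05 to 0.000161 in limma), with the one remaining library of that group assumed to vary like the other groups. The authors' deposited table lists all 7 as lower at an adjusted p under 0.05, as it does 12.4% of its entries. Its log2 changes were -5.12 for vtg7 to -7.55 for vtg6. DESeq2 on the recovered reads gave -6.98 for vtg7 and -7.06 for vtg6, so these deposited values were not reproduced either.

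At 1 wpi few vitellogenin reads were left for a comparison of the genotypes. vtg4, vtg6 and vtg7 were at or under 3 reads in both groups and are given no fold. vtg3 had 9 and 9 reads in the mutants against 0 and 3 in wild type, a wild-type to mutant ratio of 0.182 (exact interval 0.0343 to 0.623), and vtg5 had 9 and 5 reads against 7 and 21, a ratio of 2.18 (1.11 to 4.49). The libraries of vtg3 do not overlap, nor do those of vtg4, and both are higher in mutants, as were 20.1% of all genes without overlap. For vtg4 this rests on 1 and 2 reads against 0. vtg1 was lower in both mutant libraries, as were 15.6% of all genes, with 0 and 3 reads against 6 and 3. Its wild-type to mutant ratio was 3.27 (0.817 to 18.8), an interval that spans 1. The libraries of vtg5 overlap. In limma every member had an adjusted p of 1, with 0.267% of all genes called. At an unadjusted p under 0.05 in limma were 403 of 19114 genes and 0 members. edgeR called 0 of 19114 genes here, so its lack of member calls says nothing of the vitellogenins. DESeq2 called 148 of 19114 genes, with 0 members among them. The authors' deposited table lists no member at an adjusted p under 0.05, as against 5.76% of its entries (adjusted p = 0.0580 for vtg3). The counting intervals of vtg3 and vtg5 lie to one side of 1, in opposite directions, and cover counting error only, not the spread between libraries.

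The interaction asks whether the injury change differed between the genotypes. It was positive for every member, from 4.06 ± 1.93 for vtg7 to 5.40 ± 1.75 for vtg1 on the log2 scale, and called for none in limma (adjusted p = 0.641 for vtg1 to 0.9999 for vtg5, vtg6 and vtg7). Here 0.565% of all genes were called. At an unadjusted p under 0.05 in limma were 619 of 19114 genes, with 6 of the 7 members among them. The injured groups are both near 0 reads, and the term shares its uninjured libraries with the comparison of the uninjured genotypes. With the replicate block all 7 were called, as were 1.16% of all genes in that direction. Without wild type uninjured 2 all 7 members were called, as were 1.61% of all genes in that direction (adjusted p = 8.09e-05 to 0.000359 in limma), and without wild type uninjured 1 none was (smallest adjusted p = 0.451).

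The other genes of the yolk pathway were examined by lists. Beside their counts, 0.952% of all genes fell and 2.90% rose with injury in wild type, 0.251% fell and 2.94% rose in mutants, and 0.262% were higher in mutants at 1 wpi. Between the uninjured genotypes limma called 0 of 19114 genes, so a count of 0 there says nothing of a list. Changes of list genes and list medians are not shifted by the median of all genes, which is given beside them. Liver genes come first, since the liver makes vitellogenin. Of 32 liver genes 31 were found and tested. Their summed level, which holds no vitellogenin, was 2825 and 238 CPM in uninjured wild type, 767 and 244 CPM in uninjured mutants, 119 and 225 CPM in injured wild type, and 131 and 125 CPM in injured mutants. It too is highest in wild type uninjured 1, but the second highest library is mutant uninjured 1, not wild type uninjured 2. fabp10a, which codes for the liver fatty acid-binding protein, had 268 and 20.1 CPM in uninjured wild type and 70.3 and 12.1 CPM in uninjured mutants, and 2.11 to 29.0 CPM in the injured libraries. apoa2, an apolipoprotein gene, had 884 and 17.9 CPM in uninjured wild type and 137 and 8.82 CPM in uninjured mutants, and tfa, the transferrin gene, had 311 and 19.0 against 94.9 and 14.8 CPM.

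Liver-list genes at 0 reads numbered 2 of 31 in wild type 1 wpi 1, 1 in mutant 1 wpi 2 and 0 in the other libraries. In the injury comparison of wild type 0 of the 31 rose and 1 fell, the kininogen gene kng1 (log2 change -2.52, adjusted p = 0.0320 in limma), and the list median was -1.79 against 0.29 for all genes. When wild type uninjured 1 was left out, 29 were tested, and kng1 stood at -1.50 and was not called. The calls of this list depend on which uninjured wild-type library is kept. DESeq2 called 11 lower, where it called 4.84% of all genes lower. In mutants 1 rose, the haemopexin gene hpxb, and 0 fell (median -1.06 against 0.37). Between the genotypes 0 of the 31 were called, both uninjured (median -0.96 against -0.06) and at 1 wpi (median -0.19 against 0.02). The part of these liver transcripts in the vitellogenin differences was not tested.

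Set against the liver list, vitellogenin still differed between libraries. For every 100 reads of the liver list there were 198 vitellogenin reads in wild type uninjured 1 and 43.2 in wild type uninjured 2, but 3.74 in mutant uninjured 1 and 2.34 in mutant uninjured 2. In the injured libraries there were 0.545 to 0.856. Mutant uninjured 1 thus had more liver-list reads than wild type uninjured 2 and less vitellogenin. The liver-list gene with the highest mean CPM, rbp4, had 420 and 108 CPM in uninjured wild type and 202 and 148 CPM in uninjured mutants. In the injured libraries it had 68.2 to 73.2 CPM. In each of the other libraries it was a larger part of the list's sum than in wild type uninjured 1, so the ratios lean on this gene there. It was 148 of 244 CPM in mutant uninjured 2 but 202 of 767 CPM in mutant uninjured 1. The order of the ratios of the uninjured mutants therefore depends on rbp4. All are ratios of reads within a library and carry no test.

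**Figure D4:**
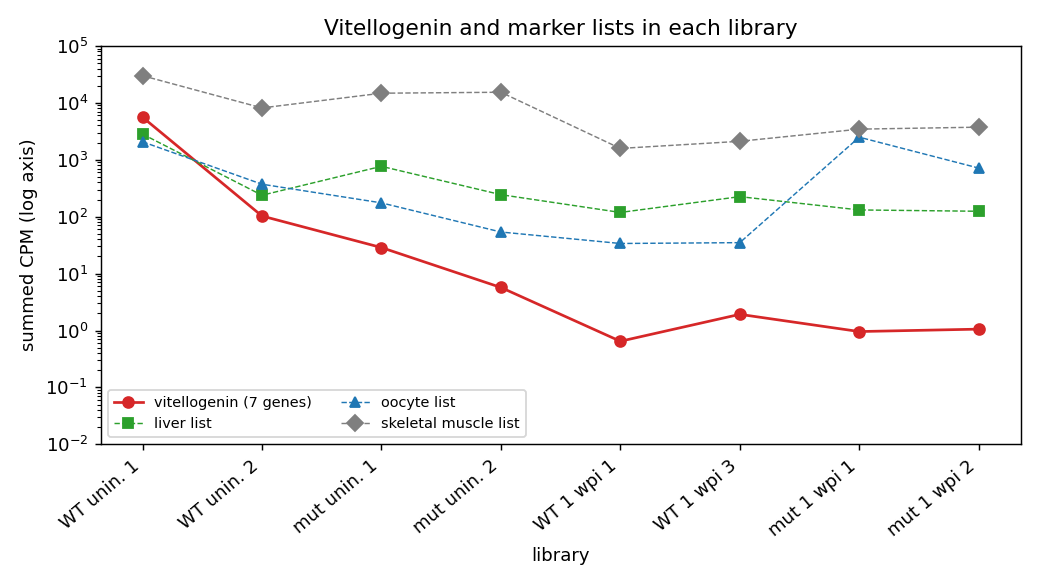
Summed CPM (log axis) of the 7 vitellogenin genes and of the liver, oocyte and skeletal muscle lists in each library (WT, wild type; mut, mstnb mutant; unin., uninjured); lines only join the points of a list. Vitellogenin and liver lists are highest in wild type uninjured 1, the liver list is second highest in mutant uninjured 1, and the oocyte list is highest in mutant 1 wpi 1, where vitellogenin stands at 0.959 CPM.

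Egg coat and oocyte genes did not follow the vitellogenins in the injured mutants. The oocyte list (29 genes, 27 tested) summed to 2070 and 372 CPM in uninjured wild type, 175 and 53.8 CPM in uninjured mutants, 33.8 and 35.0 CPM in injured wild type, and 2494 and 714 CPM in injured mutants. The order of the uninjured libraries is that of vitellogenin, while the injured mutants are high here and at the bottom there. In mutant 1 wpi 1 the oocyte list stood 2600-fold above vitellogenin, and in wild type uninjured 1 it stood at 0.370 of it. The egg coat gene zp3a.1 had 304 and 43.0 CPM in uninjured wild type and 348 and 98.4 CPM in injured mutants, against 0.846 and 0.529 CPM in injured wild type. Of the 27 genes 17 fell with injury in wild type, 13 rose with injury in mutants and 13 were higher in mutants at 1 wpi. Between the uninjured genotypes 0 were called, as were 0 of all 19114 genes. The 17 that fell were 11 without wild type uninjured 1, 7 in a fit of only the groups compared, 5 and 1 with injured wild-type library 1 or 3 left out, and 1 to 21 over all settings run. The 13 that rose in mutants were 0 with TMM-scaled CPM, in edgeR, without mutant 1 wpi 1 and without either uninjured mutant library, 1 in DESeq2 and 0 to 20 over all settings run. For injury in mutants TMM-scaled CPM and edgeR called 185 and 132 of 19114 genes higher, so the calls of this list there do not hold across the settings run. The 13 higher in mutants at 1 wpi were 16 in DESeq2 and 0 to 19 over all settings run. They were 0 with TMM-scaled CPM and in edgeR, where 0 of 19114 genes were called. They were also lost in fits without a library that called almost no gene of any kind. Such a 0 says nothing of this list. The values of zp3a.1 do not overlap between the genotypes at 1 wpi, but 20.1% of all genes were likewise higher in mutants without overlap.

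The list of oestrogen signalling held receptors, their cofactors and enzymes of oestrogen synthesis. esr1, the receptor through which oestradiol acts on vitellogenin genes in the liver, had 5.89 and 1.23 CPM in uninjured wild type, 0.748 and 0.678 CPM in uninjured mutants, 0.249 and 0.626 CPM in injured wild type, and 0.274 and 0.176 CPM in injured mutants. Its 4 uninjured libraries have the order of the vitellogenins, as do 3.17% of all genes. They all lie above the injured ones, as for 2.44% of all genes. The margin is narrow, with 0.678 CPM in mutant uninjured 2 against 0.626 CPM in wild type 1 wpi 3. esr1 was not called in the injury comparison of wild type (-1.46 on the log2 scale, adjusted p = 0.135 in limma). Its change there was -0.65 without wild type uninjured 1. The other oestrogen receptor genes did not share the order of the vitellogenins: esr2a had 2.41 to 7.62 CPM and esr2b 3.03 to 10.01 CPM, each lowest in wild type uninjured 1. cyp19a1a, the ovarian aromatase gene, was at or below 0.502 CPM in every library. Of 17 genes of this list 14 were tested, of which 0 rose and 1 fell in wild type and likewise in mutants. The gene was cyp19a1b, the aromatase gene of radial glia, with 12.3 and 5.31 CPM in uninjured and 0.0498 and 0.481 CPM in injured wild type (adjusted p = 0.00733 in limma, and 0.0206 without wild type uninjured 1). The list medians were -0.06 against 0.29 for all genes in wild type and -0.14 against 0.37 in mutants, and 0 genes were called between the genotypes.

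Of the genes of yolk uptake and cleavage none was called lower with injury. lrp13, an oocyte lipoprotein receptor gene, had 4.51 and 5.23 CPM in uninjured and 1.64 and 3.56 CPM in injured wild type. In mutants it had 3.53 and 4.87 CPM uninjured and 9.04 and 7.09 CPM injured. It was not called in the main limma fit. vldlr, the very low density lipoprotein receptor gene, also known as a vitellogenin receptor in vertebrate oocytes, had 43.6 and 70.2 CPM in uninjured and 115 and 97.6 CPM in injured wild type and was not called (adjusted p = 0.157 in limma). Of 19 genes tested 3 rose in injured wild type (lrp1ab, stab1 and ctsla) and 0 fell, with a median of 0.83 against 0.29 for all genes. In mutants 2 rose (ctsba and ctsla) and 0 fell (median 0.97 against 0.37), and 0 were called between the genotypes. ctsla, a cathepsin L gene that is also active in lysosomes of many other cells, went from 114 and 111 to 518 and 504 CPM in wild type (adjusted p = 0.00105 in limma). In wild type 2 rose when wild type uninjured 1 was left out, ctsba and ctsla, and lrp1ab and stab1 had adjusted p of 0.141 and 0.0862 in limma.

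Of the lipid carriers and their helpers, those called in limma were higher after injury. apobb.1, an apolipoprotein B gene that is also on the liver list and of the same large lipid transfer protein family, had 27.4 and 1.85 CPM in uninjured and 0.797 and 3.18 CPM in injured wild type, with no call (adjusted p = 0.311 in limma). mttp, which loads lipid onto such carriers, had 9.73 and 1.77 CPM in uninjured and 1.05 and 2.41 CPM in injured wild type. Of 9 tested genes of this list 2 rose in each genotype with injury, and 0 fell, with the same counts for wild type without wild type uninjured 1. They were apoeb and apoc1, which code for small exchangeable apolipoproteins and are not of the large lipid transfer protein family. The list median was -0.88 against 0.29 in wild type and -0.39 against 0.37 in mutants, and 0 were called between the genotypes.

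Markers of other tissues also differed between the libraries. Ovarian follicle genes (13 of 17 found, 5 tested) summed to 22.4 and 12.7 CPM in uninjured wild type, 7.45 and 11.1 CPM in uninjured mutants, 3.78 and 5.68 CPM in injured wild type and 17.8 and 7.18 CPM in injured mutants. In wild type 1 of the 5 fell with injury, the steroid-forming enzyme gene cyp11a1 (adjusted p = 0.102 in limma without wild type uninjured 1), and 0 were called in mutants or between the genotypes. Skeletal muscle genes summed to 29994 and 8142 CPM in uninjured wild type, 14771 and 15358 CPM in uninjured mutants, and 1582 to 3739 CPM in the injured libraries. Of the 17 muscle genes 9 fell in wild type (9 also without wild type uninjured 1, where 1 rose) and 7 in mutants. Erythrocyte genes summed to 5274 and 1436 CPM in uninjured wild type, 7569 and 5514 CPM in uninjured mutants, and 743 to 1066 CPM in the injured libraries, with 1 of 7 falling in wild type (0 without wild type uninjured 1) and 7 of 7 in mutants. In the main limma fit muscle and erythrocyte genes had 0 calls between the genotypes, and none of the genes of these lists was at 0 reads in any library. Without wild type uninjured 1 some of them were called, in both directions. Among these, at 1 wpi, hbaa2 (-3.23 on the log2 scale) and hbba2 (-2.79) were lower in mutants, and actc1b (1.23) and ckma (1.16) were higher. In the uninjured cord acta1b (3.81) and hbba1 (2.37) were higher in mutants. The part of these tissues in the vitellogenin differences was not tested.

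The members resembled each other closely, with Pearson correlations of log2(CPM + 1) over the 8 libraries of 0.957 to 0.996 in the 21 pairs, and of 0.921 to 0.993 without wild type uninjured 1. These are descriptions of 8 libraries in which 1 is far above the rest. Outside the family, 27 of the 17696 genes that averaged 1 CPM or more correlated with the summed vitellogenin above 0.95. The 10 highest were ndufa1 (0.986), ccl36.1 (0.984), kng1 (0.981), si:dkeyp-73d8.8 (0.977), si:dkeyp-73d8.9 (0.975), cdkn3 (0.973), esr1 (0.968), aif1l (0.967), cdaa (0.967) and ndufa2 (0.965). Without wild type uninjured 1 their correlations were 0.8763 to 0.9499. In size they were far from the vitellogenins: ndufa1, a gene of respiratory complex I, had 163 and 98.8 CPM in uninjured wild type and 57.9 to 68.6 CPM in the injured libraries. kng1, the plasma protein gene, had 13.7 and 2.55 CPM in uninjured wild type, 1.41 and 1.40 CPM in uninjured mutants, and 0.0996 to 0.548 CPM after injury. Both kng1 and esr1 belong to the lists above, and no oocyte gene is among the 10.

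Within the chromosomal cluster, the one other gene with a row in the deposited table was si:rp71-23d18.4, which lies between vtg5 and vtg4. It had 1.74 and 0.288 CPM in uninjured wild type, 0 and 0.279 CPM in uninjured mutants, 0.149 and 0.577 CPM in injured wild type, and 0.320 and 0.529 CPM in injured mutants, and was not called (adjusted p = 0.575 for injury in wild type in limma). It was highest in wild type uninjured 1, as its neighbours were, but its uninjured and injured libraries overlap.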

How the data were processed

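RNA-seq (50 bp paired-end reads) covered 8 libraries in 4 groups of 2, taken from the labels. The 4 tables deposited by the authors share 8 columns of CPM, and each adds a comparison: per the file headers a baseMean (a normalized read signal), a test score, p-values, and a log2 fold change whose standard error is in lfcSE. The submitters' processing notes name Bowtie2, Cufflinks and Cuffdiff, without roles. For build, annotation and counting program: not given in the sources used here. CPM agreed between tables within a relative difference of 1.13e-08. The deposited log2 changes of the vitellogenins differ from those of DESeq2 on the recovered reads, and how they were computed was not traced. All CPM values (100%) were whole multiples of 1 read within 0.01 reads, which gave back reads and depth.

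log2(CPM + 1) of the 19114 genes whose mean reached 1 CPM in 1 or more groups was fitted in limma 3.58.1 under R 4.3.3 (trended prior, 4 group means, 4 residual degrees of freedom). Calls are at a Benjamini-Hochberg adjusted p under 0.05. Alternatives were TMM scaling, a pseudocount of 0.25, no filter, edgeR 4.0.16, DESeq2 1.42.0, only the groups compared, a replicate block and leaving out each library. limma, edgeR and DESeq2 were first run on simulated data, for injury in wild type only and without the other alternatives. The simulated libraries held no outlying library, so they do not show how the tests behave for the vitellogenins. The 7 members are all named; the 10 genes most like them were chosen by correlation with their sum, and list genes by mean CPM or role. Members and lists were chosen with earlier results of these data known. Intervals and floors cover counting error only. Genes are named as in the tables; 1 list gene was found under another symbol. Sequences are not shown.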

Additional observations from a re-analysis of the deposited data

How the results depend on the processing

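With injury in wild type, 195 of 19114 genes were called lower with a pseudocount of 0.25 and 127 of 25309 with no filter. For injury in wild type, 6 of 7 members were called in the main limma fit and in edgeR. In DESeq2, with a pseudocount of 0.25 and with the replicate block, 7 members were called. The count was 3 with TMM-scaled CPM (vtg1, vtg2 and vtg4) and 3 with no filter, 0 with only the groups compared, and 0 to 7 with each library left out (2 without either uninjured mutant library). For injury in mutants it was 0, but 1 (vtg1) in DESeq2, 1 with only the groups compared, 1 with the replicate block, and 0 to 1 with each library left out. For the uninjured genotypes it was 0, but 2 in DESeq2, 7 with only the groups compared, 7 with the replicate block, and 0 to 7 with each library left out. The fit of only those 2 groups had 82.5 prior degrees of freedom, against 7.93 in the main fit, and so weighs each gene's own spread less; with the replicate block there were 41.6. The interaction gave 0, but 7 with the replicate block and 0 to 7 with each library left out. At 1 wpi no setting called a member, and with only those groups none passed the filter; in injured mutants vtg3 did not pass it there.

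The labels say nothing of what the replicate numbers mean. Same-numbered libraries of 3 groups deviated together with correlations of 0.199 to 0.299, and 2 numbers per group do not establish a pairing; wild type 1 wpi 3 has a number of its own in that block and drops out of the fit. Directions turned in injured mutants for vtg3 (-1.44 to 0.14 with each library left out) and vtg6 (-2.22 to 0.00398), both without mutant uninjured 1, and at 1 wpi for vtg1 (0.97), vtg2 (1.45) and vtg5 (1.24) with the replicate block and for vtg2 (-0.42 to 0.0524 with each library left out) without wild type 1 wpi 3. None of these passed, and the cause was not tested. All other directions of the changes printed for members were kept in the settings run. Over all genes, injury in wild type gave 737 calls in the main fit, 1707 in DESeq2, 110 with only the groups compared, 1277 with the replicate block and 57 to 3834 with each library left out. Depth limits the injured libraries, where no member had over 21 reads. The same settings were applied to the lists after seeing the data.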
